A study of Mus musculus with 60 samples.

Results

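Small nucleolar RNAs (snoRNAs) and the genes that carry them were followed in total RNA of mouse hippocampus. The members were the rows of the deposited count table named as H/ACA snoRNAs (Snora), C/D snoRNAs (Snord), numbered snoRNA host genes (Snhg) or Gas5, with a mean of at least 0.1 CPM, a read count scaled to the total of its library, over all 60 libraries. Of 131 rows so named among 35976 in the table, 59 were kept. These were all 17 host genes, 25 of 38 H/ACA snoRNAs and 17 of 76 C/D snoRNAs. Just inside the limit were Snora35 at a mean of 0.105 CPM, Snora70 at 0.108 and Snord72 at 0.113, and just outside it Snord2 at 0.0987, Snord89 at 0.0866 and Snord43 at 0.0817.

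SnoRNAs guide the chemical modification of ribosomal RNA in the nucleolus: C/D snoRNAs, bound by fibrillarin (Fbl), direct 2′-O-methylation, and H/ACA snoRNAs, bound by dyskerin (Dkc1), direct pseudouridylation. Most are cut out of the introns of host genes after splicing, so a host transcript and its snoRNAs start from the same precursor but have separate fates. The spliced RNA of several hosts encodes no known protein and is degraded by nonsense-mediated decay, and that of Gas5 (growth arrest-specific 5) is known to build up when translation stops.

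The study compared AppNL-G-F mice (NLGF), which carry mutations of familial Alzheimer's disease knocked into the endogenous App gene, with wild-type (WT) mice at 3, 8 and 24 weeks of age. Each age and genotype had 5 male and 5 female hippocampi, and no treatment or further allele is named. The libraries were made from rRNA-depleted total RNA. The labels treat both sexes as biological replicates but do not tie each aliquot to its own mouse, so the p-values cover only the spread among aliquots. In bulk tissue, fewer cells of a type and less RNA per cell cannot be told apart.

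Of the 10 NLGF libraries of week 3, 7 had total counts of 54.0 M to 73.4 M and are called deeper here. The 3 others (female replicates 2 and 3, male replicate 1) and the remaining 50 libraries had 17.8 M to 35.2 M. The deeper libraries also differed in content: Bc1, a short neuronal RNA, stood at 1738 to 5727 CPM in them and at no more than 59.5 CPM in the other 53, and the Y RNA Rny1 at 5.57 to 12.2 CPM against no more than 1.61. Since all 7 are NLGF libraries of week 3, library kind and genotype cannot be told apart in them, and every week 3 result is given for the 7 and the 3 apart. The sex label of NLGF male replicate 2 of week 3 conflicts with its counts, and NLGF female replicate 1 of week 8 carries an age field of 3 weeks against its title. All 10 markers of hippocampal neurons were detected (summed level 6413 to 11036 CPM). The summed level of 10 choroid plexus markers was 235 to 6405 CPM in WT week 3, 348 to 15409 CPM in the deeper libraries, 586 to 1546 CPM in the 3 others and 177 to 15869 CPM at weeks 8 and 24, and its part in the results was not tested.

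The C/D snoRNAs that passed the test between the deeper NLGF libraries and WT of the same age, given below, are shown first. Their sequences are from the GENCODE vM21 transcripts (GRCm38/mm10). Snord64 (chr7:59978808-59978874, minus strand) lies in the span that RefSeq gives Snhg14. Snord15a (chr7:99482785-99482932, minus strand) lies in an intron of the ribosomal protein gene Rps3. Snord96a (chr11:48802032-48802112, plus strand) overlaps an exon of Rack1, which encodes a ribosomal scaffold protein, and Snord17 (chr2:144265979-144266216, minus strand) lies in an intron of Snx5, a sorting nexin gene. Capitals mark the first TGATGA, the C box core, and the last CTGA, the D box.
Snord64: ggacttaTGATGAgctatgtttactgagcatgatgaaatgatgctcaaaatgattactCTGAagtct
Snord15a: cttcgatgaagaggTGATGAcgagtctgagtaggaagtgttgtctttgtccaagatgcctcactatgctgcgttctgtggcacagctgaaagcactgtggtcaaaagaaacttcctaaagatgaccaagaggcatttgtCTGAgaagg
Snord96a: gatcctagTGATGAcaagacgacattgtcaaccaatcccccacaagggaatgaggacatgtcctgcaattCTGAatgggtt
Snord17: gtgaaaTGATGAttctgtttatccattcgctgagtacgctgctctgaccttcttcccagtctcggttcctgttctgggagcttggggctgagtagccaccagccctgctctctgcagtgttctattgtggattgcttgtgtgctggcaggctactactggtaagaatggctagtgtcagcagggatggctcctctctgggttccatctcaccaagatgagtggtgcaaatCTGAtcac
Of the 17 C/D snoRNAs kept, 12 (70.6%) held TGATGA on the sense strand and 17 (100%) held CTGA within the last 15 bases. Among 97 GENCODE Snord genes the shares were 75.3% and 93.8%.

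Of the H/ACA snoRNAs, Snora28 (chr12:111540941-111541067, plus strand), in an intron of the translation factor gene Eif5, is shown with its terminal ACA in capitals. Snora73a (chr4:132352775-132352979) and Snora73b (chr4:132352322-132352526), on the minus strand in the span of Snhg3 and Rcc1, are shown because reads can be split between them. This pair, the U17 snoRNA, acts in the cleavage of precursor rRNA. Capitals in the pair mark the bases at which the copies differ.
Snora28: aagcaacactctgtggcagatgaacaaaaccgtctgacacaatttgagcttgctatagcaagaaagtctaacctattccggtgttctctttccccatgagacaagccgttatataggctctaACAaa
Snora73a: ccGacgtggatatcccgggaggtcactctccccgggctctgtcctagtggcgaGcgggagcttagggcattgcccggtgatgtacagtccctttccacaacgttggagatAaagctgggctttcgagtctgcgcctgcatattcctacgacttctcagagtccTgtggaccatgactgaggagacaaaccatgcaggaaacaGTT
Snora73b: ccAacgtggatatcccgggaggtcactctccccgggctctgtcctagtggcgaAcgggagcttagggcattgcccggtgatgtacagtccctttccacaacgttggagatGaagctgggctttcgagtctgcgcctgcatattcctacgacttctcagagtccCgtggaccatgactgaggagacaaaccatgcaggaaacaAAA
The pair had 7 mismatches over 205 bases, 3 of them in the last 3 bases, an identity of 96.6%, so the counts of either copy are uncertain where the authors' counting could divide reads between them. An ACA lay within the last 10 bases in 23 of 25 kept H/ACA snoRNAs (92%) and in 95% of 40 GENCODE Snora genes.

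The 3 host genes that fell in NLGF at week 3 are shown by their start, from RefSeq (GRCm38.p6), from 20 bases before the annotated start. Genes of the translation machinery, and many snoRNA hosts, are known to begin transcription within a pyrimidine tract, so the longest run of C and T is in capitals. Only runs from 5 bases before to 20 after the start were searched. In Gas5 and Snhg8 the run spans the annotated start, and in Snhg5 it begins after it. Gas5 has 2 annotated starts, and the one with the longest run is shown. Gas5 is at chr1:161035146-161035195 (plus strand), Snhg8 at chr3:123508307-123508356 (minus strand) and Snhg5 at chr9:88522868-88522917 (minus strand).
Gas5: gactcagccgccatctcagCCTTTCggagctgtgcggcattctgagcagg
Snhg8: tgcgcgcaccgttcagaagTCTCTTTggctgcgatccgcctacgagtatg
Snhg5: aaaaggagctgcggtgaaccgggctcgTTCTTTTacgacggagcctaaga
A run of at least 6 C or T from 5 bases before to 20 after the start was found in 8 of the 15 hosts in the promoter table (53.3%) and in 25.3% of 27025 genes.

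A few long snoRNAs held most of the snoRNA signal. Of 184588 counts over all 114 snoRNA rows and 60 libraries, 88.4% fell on the 10 rows of 140 bases or more, and 85.6% on Snora73b, Snora73a, Snora74a, Snord17 and Snord15b alone. The 63 rows under 100 bases held 5.73%, and 12 rows had no count in any library. Most C/D snoRNAs are this short, so their counts rest on few reads. In the 53 libraries that are not deeper, Snora73b averaged 202 CPM per kb of transcript, Snora73a 114, Snora74a 55.3 and Snord17 52.3. Gas5 was next at 43.9 CPM per kb, followed by Snord15b at 28.5, Snord64 at 25.1, Snhg11 at 18.2 and Snhg8 at 15.8. Snord64 was the only kept snoRNA under 100 bases with a mean above 1 CPM (1.68 CPM). Per kb, the median over 15 hosts with a length was 1.61 CPM, over 25 H/ACA snoRNAs 1.63 and over 17 C/D snoRNAs 3.21.

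**Figure D1:**
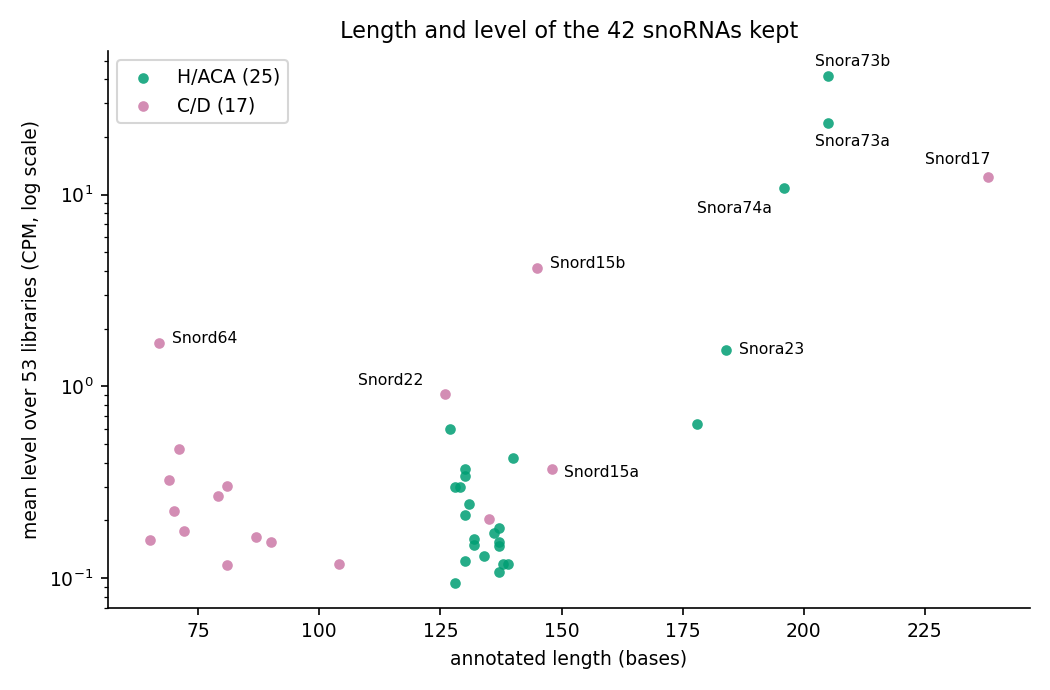
Each point is 1 of the 42 snoRNAs kept, with its annotated length in bases on the horizontal axis and its mean level over the 53 libraries that are not deeper (CPM, log scale) on the vertical axis. Snora73b (41.5 CPM), Snora73a (23.5), Snord17 (12.4) and Snora74a (10.8) stand above the others, all near 200 bases or longer, and Snord64 (1.68) stands apart among the short ones.

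By the annotation, 39 of the 42 snoRNAs lay in a host gene, 16 of them in a ribosomal protein gene and 11 in one of the Snhg hosts kept, while Snord104, Snord118 (U8) and Snord13 (U13) had no host. Only 7 of the 17 kept hosts held a kept snoRNA. Some snoRNAs, among them Snora73a in Snhg3, Snord22 in Snhg1 and Snord96a in Rack1, overlap an exon of their host in the annotation. The strand setting of the authors' counting is not given in the sources used here, so reads of the 2 transcripts may not be separable there.

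At week 3, snoRNA levels varied more between WT libraries than host levels did, and at week 24 the WT spreads lay closer together. The snoRNA sum still varied more than the host sum at week 24 in both genotypes. In WT week 3 the summed level of the 42 snoRNAs ran from 45.2 to 225 CPM (4.98-fold), and that of the 17 hosts from 137 to 260 CPM (1.90-fold). The library WT male replicate 4 had 179 CPM of H/ACA and 45.8 CPM of C/D snoRNAs with 170 CPM of hosts, whereas WT female replicate 1 had 44.5, 9.01 and 227 CPM. The library richest in snoRNAs thus had the third lowest host sum. The 3 other NLGF libraries of week 3 had snoRNA sums of 239, 132 and 45.4 CPM, from above the highest WT library to just above the lowest, and host sums of 170, 170 and 155 CPM. The coefficient of variation of the snoRNA sum was 0.567 in WT week 3, 0.302 in WT week 8 and 0.137 in WT week 24, against 0.211, 0.126 and 0.0912 for the hosts. In NLGF it was 0.208 at week 8 and 0.157 at week 24, against 0.129 and 0.0921. The C/D sum of WT week 24 varied less than the host sum (0.0802). Among single members with enough counts, the median coefficient over 7 snoRNAs and 14 hosts was 0.646 and 0.227 in WT week 3, 0.399 and 0.267 in WT week 8, and 0.295 and 0.165 in NLGF week 8. At week 24 it was 0.215 and 0.197 in WT and 0.232 and 0.180 in NLGF, and the 3 C/D snoRNAs of WT week 24 (0.167) were below the hosts. These differences in spread were not tested.

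**Figure D2:**
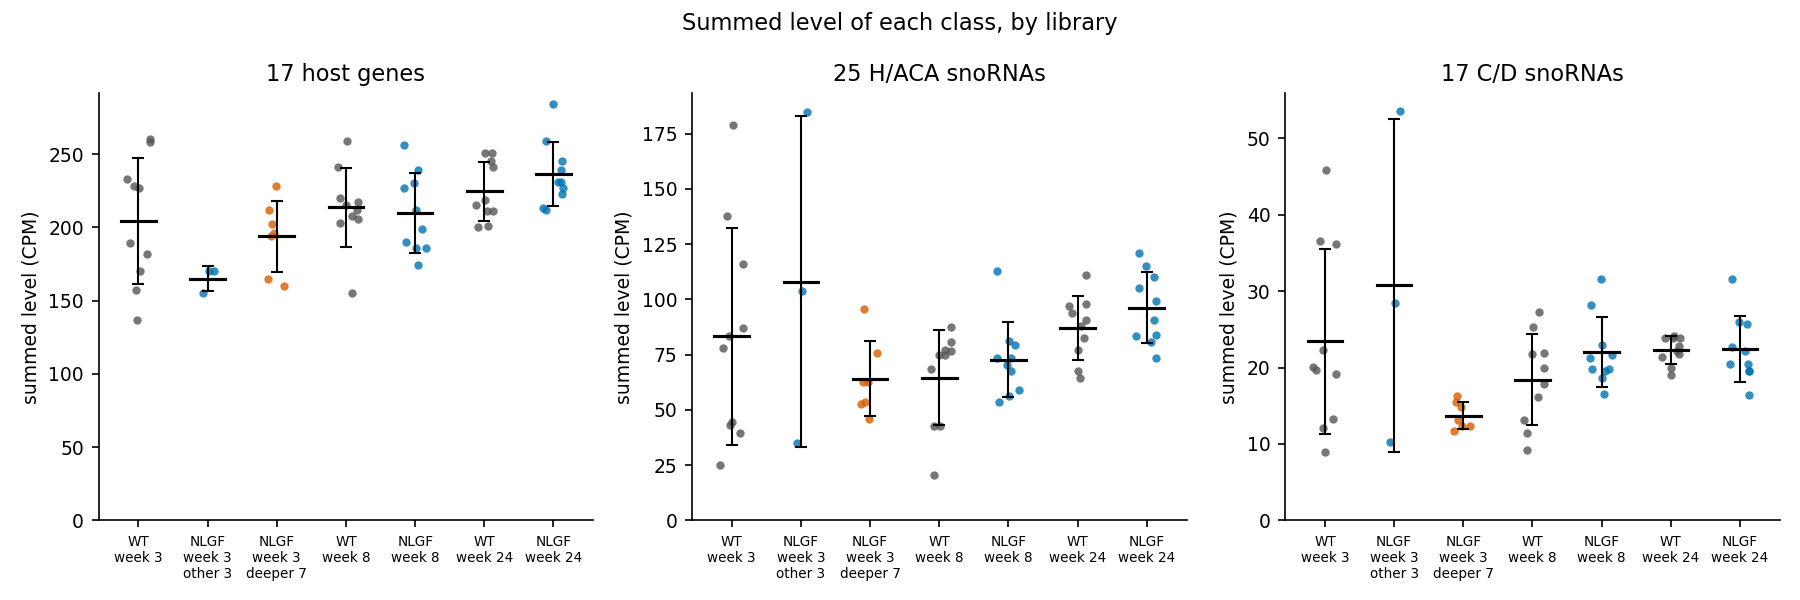
Summed level (CPM) of the 17 hosts, the 25 H/ACA and the 17 C/D snoRNAs, with 1 point per library, by genotype, week and, for NLGF week 3, library kind. Black lines are means and bars 1 SD. The H/ACA sum runs from 25.1 to 179 CPM in WT week 3, while the host sum of the same libraries runs from 137 to 260 CPM.

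The first comparison asks whether snoRNAs and hosts differ between genotypes at week 3, the youngest age sampled. With all 20 libraries, 4 of 30 members tested passed an adjusted p of 0.05 (edgeR quasi-likelihood test with sex as covariate). Of all genes 3.78% were called, 1.67% higher and 2.11% lower. The hosts Snhg8 (log2 fold change -0.66 ± 0.119 (SE), adjusted p = 0.0150), Gas5 (-0.54 ± 0.108, adjusted p = 0.0171) and Snhg5 (-0.44 ± 0.119, adjusted p = 0.0433) fell, and Snord64 (1.53 ± 0.407, adjusted p = 0.0426) rose. With a term for the deeper libraries, 0 members were called. The authors' deposited table lists 8 members with an adjusted p under 0.05 at week 3, with Snhg8 at -0.57, Gas5 at -0.37, Snord96a at -1.15 and Snord64 at 1.24. It holds 2628 genes for that week, 241 of them over 0.05, and the share of all genes tested is not known here. Among the 8 it lists Snord17 at -0.35 with an SE of 0.353, so its fold changes may be on another scale than those given here.

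Against the 10 WT libraries of week 3, the 7 deeper NLGF libraries alone had 4 members higher and 6 lower of 33 tested, where 21.5% of all genes were called, 9.57% higher and 11.9% lower. The higher members were Snord64, Snhg18, Snhg3 and Snora28, and the lower ones Snhg8, Snord15a, Gas5, Snord96a, Snord17 and Snhg5, of which Snord15a and Snord96a passed the count filter through WT alone. Snora28 passed it only with the deeper libraries. The 3 other NLGF libraries against the same 10 WT libraries gave 0 of 37, with 0% of all genes called (edgeR; 0 members with DESeq2). At an unadjusted p under 0.05 there were 5 members, beside 11.4% of all genes. The comparisons share the WT libraries, so their values are set side by side and not compared as independent. When each library was left out in turn, Gas5 and Snhg8 stayed called in all 20 fits of the full set and in all 17 of the deeper set, while Snhg5 was lost in 14 and Snord64 in 15 of the 20.

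Gas5 was at 22.1, 34.1 and 49.2 CPM (lowest, median and highest) in WT. It was at 19.9, 23.2 and 24.4 CPM in the deeper NLGF libraries and at 27.5, 29.0 and 24.3 CPM in the 3 others. All 7 deeper libraries lay below the WT median and 2 of them below every WT library, and the 3 others also lay below the WT median but within the WT range. By sex label, WT females were at 33.4 to 49.2 CPM and WT males at 22.1 to 39.5 CPM. The deeper females were at 21.3 to 23.3 CPM and the deeper males, at 19.9 to 24.4 CPM, overlapped the WT males. The log2 fold change was -0.60 ± 0.126 (SE) for the deeper libraries (adjusted p = 0.00217, edgeR) and -0.44 ± 0.159 for the 3 others (adjusted p = 0.366).

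Snhg8, a host of Snora24, which had no count in any library, was at 6.65, 11.5 and 15.2 CPM in WT. It was at 5.41, 5.78 and 8.30 CPM in the deeper libraries and at 8.47, 7.59 and 6.65 CPM in the others. Here 4 of the 7 deeper libraries lay below every WT library, and the 3 others lay below the WT median. By sex label, WT females were at 11.3 to 15.2 CPM and WT males at 6.65 to 11.6 CPM. The deeper females were at 5.50 to 7.02 CPM and the deeper males, at 5.41 to 8.30 CPM, overlapped the WT males. The sex covariate takes the genotype difference as equal in both sexes, and whether it was equal was not tested. The log2 fold changes were -0.71 ± 0.140 (adjusted p = 0.00125) and -0.59 ± 0.159 (adjusted p = 0.306). For both Gas5 and Snhg8 the 2 fold changes had the same sign, though they share the WT libraries. Against the 3 others directly, 6 of the 7 deeper libraries lay below all 3 for Gas5 and 4 of 7 for Snhg8.

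Snhg5, the host of the U50 snoRNA, was at 2.96, 3.72 and 6.22 CPM in WT, at 2.39, 2.57 and 3.19 CPM in the deeper libraries and at 3.11, 2.67 and 3.76 CPM in the others. Its log2 fold change was -0.52 ± 0.133 (adjusted p = 0.00774) in the deeper libraries and -0.25 ± 0.198 in the others (adjusted p = 0.628). Snhg3, the host of U17, moved the other way, with 0.712, 1.5 and 2.14 CPM in WT and 1.75, 2.14 and 2.22 CPM in the deeper libraries (0.57 ± 0.180, adjusted p = 0.0291), a call that was lost in 6 of 17 fits with 1 library fewer. In the 3 others it was at 1.25, 1.17 and 0.773 CPM (-0.56 ± 0.249, adjusted p = 0.417), all below the WT median. Snhg18 was at 0.417, 0.819 and 1.02 CPM in WT, at 0.853, 1.28 and 1.96 CPM in the deeper libraries (0.81 ± 0.207, adjusted p = 0.00811) and at 0.664, 0.750 and 0.412 CPM in the others.

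Snhg14, the long transcript of the imprinted Prader-Willi and Angelman region that runs antisense to Ube3a, did not pass the test in either set. It was at 12.2, 25.6 and 40.8 CPM in WT, at 22.3, 34.8 and 43.4 CPM in the deeper libraries (0.48 ± 0.192, adjusted p = 0.0848) and at 15.6, 24.4 and 10.3 CPM in the others (-0.70 ± 0.218, adjusted p = 0.331). The groups overlapped, and the differences from WT had opposite signs. Snhg11, a neuronal transcript and the most abundant host, was at 103 ± 26.5 CPM (SD, n = 10) in WT, 103 ± 18.7 (n = 7) in the deeper libraries and 86.6 ± 4.05 (n = 3) in the others, with log2 fold changes of 0.02 ± 0.153 and -0.27 ± 0.197. Snhg1, the host of U22, was at 3.14 ± 0.661, 3.29 ± 0.402 and 2.87 ± 0.471 CPM (0.08 ± 0.133 and -0.19 ± 0.187). Snhg4, whose span holds Snora74a, was at 3.43 ± 0.700, 3.31 ± 0.498 and 3.24 ± 0.0901 CPM (-0.04 ± 0.139 and -0.11 ± 0.188). None of these 3 passed the test.

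**Figure D3:**
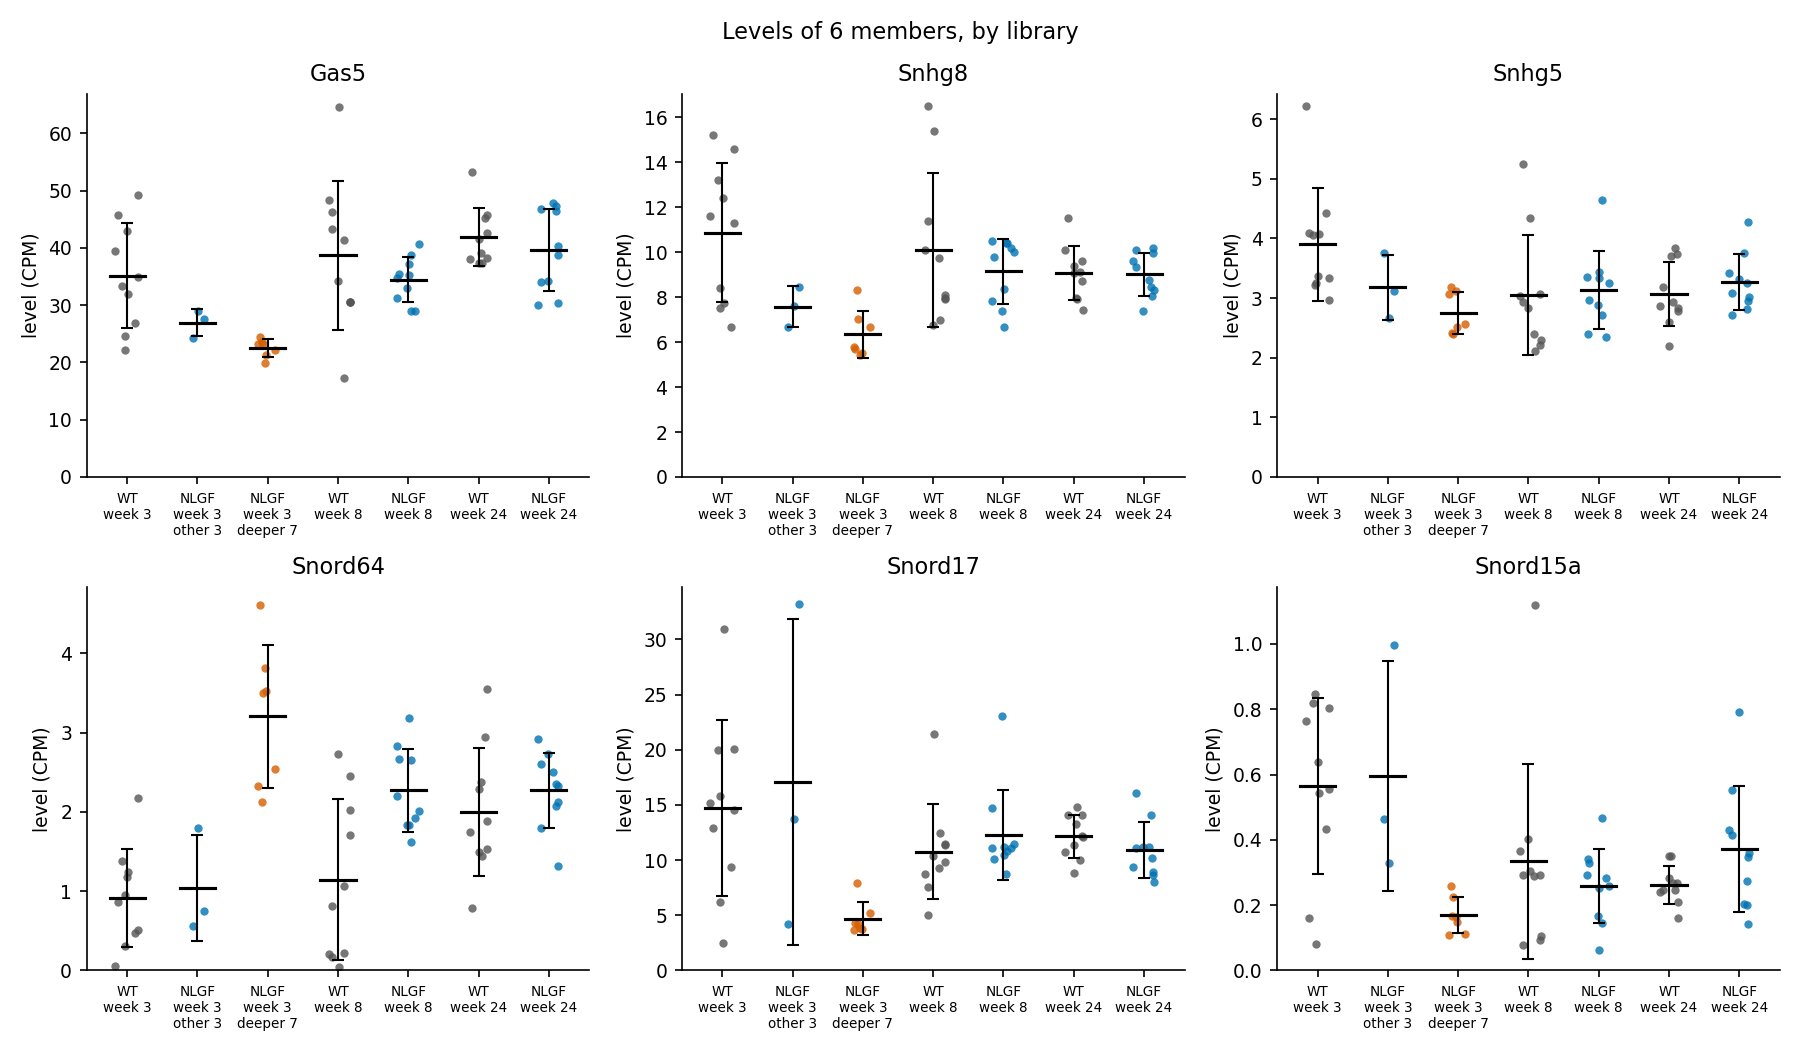
Level (CPM) of Gas5, Snhg8, Snhg5, Snord64, Snord17 and Snord15a with 1 point per library, by genotype, week and, for NLGF week 3, library kind. Black lines are means and bars 1 SD. For Gas5 and Snhg8 both kinds of NLGF week 3 library sit low, whereas Snord64 is high and Snord17 low in the deeper kind, with 2.12 to 4.61 and 3.64 to 7.91 CPM.

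Of 7 C/D snoRNAs tested in the deeper libraries, Snord64 was higher and Snord17, Snord15a and Snord96a were lower. The summed C/D level of the deeper libraries (11.7 to 16.3 CPM) lay inside the WT range (9.01 to 45.8 CPM). Snord64 was at 0.0545, 0.904 and 2.17 CPM in WT and at 2.12, 3.50 and 4.61 CPM in the deeper libraries, where 6 of 7 lay above every WT library (1.86 ± 0.350, adjusted p = 0.000986). The 3 others were at 0.747, 1.80 and 0.567 CPM, inside the WT range (0.00248 ± 0.553, adjusted p = 0.999). Snord17 was at 2.46, 14.9 and 30.9 CPM in WT and at 3.64, 4.21 and 7.91 CPM in the deeper libraries (-1.67 ± 0.378, adjusted p = 0.00503). All 7 lay below the WT median and none below every WT library. The 3 others were at 33.2, 13.7 and 4.23 CPM, from above the highest WT library to near the lowest (0.09 ± 0.696, adjusted p = 0.971).

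Snord15a was at 0.0823, 0.596 and 0.846 CPM in WT, at 0.109, 0.163 and 0.260 CPM in the deeper libraries (-1.74 ± 0.358, adjusted p = 0.00175) and at 0.996, 0.330 and 0.464 CPM in the others (-0.00679 ± 0.492). Its neighbour in Rps3, Snord15b, was at 0.327, 1.92 and 9.44 CPM in WT and 1.3, 2.09 and 2.93 CPM in the deeper libraries (-0.77 ± 0.582, adjusted p = 0.380). Snord96a was at 0.272, 0.431 and 1.04 CPM in WT and at 0.122, 0.156 and 0.321 CPM in the deeper libraries, 6 of 7 of which lay below every WT library (-1.41 ± 0.303, adjusted p = 0.00246). Both Snord15a and Snord96a passed the filter on low counts through WT alone, where 8 of 10 libraries reached its limit of 0.335 CPM and 0 of 7 deeper libraries did, so they could enter this test only as lower. With no filter the values were -1.71 ± 0.357 (adjusted p = 0.00158, edgeR) and -1.39 ± 0.319 (adjusted p = 0.00364). Snord96a was low in the 3 others as well, at 0.166, 0.210 and 0.361 CPM (-1.01 ± 0.463, adjusted p = 0.422). The U22 snoRNA Snord22 (-0.17 ± 0.592 and 0.79 ± 0.874) and Snord4a (0.66 ± 0.291 and -0.77 ± 0.518) did not pass the test in either set.

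Of the H/ACA snoRNAs, Snora28 alone was called in the deeper libraries. It was at 0.134, 0.402 and 0.712 CPM in WT, at 0.546, 0.724 and 0.985 CPM in the deeper libraries (0.83 ± 0.292, adjusted p = 0.0491) and at 0.457, 0.420 and 0.155 CPM in the others (-0.32 ± 0.524, adjusted p = 0.835). Leaving out 1 library ended this call in 13 of 17 fits. To be tested, a gene had to reach the filter's limit of 0.335 CPM in 7 libraries. Snora28 reached it in 7 of 7 deeper and 6 of 10 WT libraries, so it passed only with the group where it was high. The abundant H/ACA snoRNAs did not pass the test: Snora73b was at 8.29, 39.3 and 94.6 CPM in WT and at 10.8, 22.2 and 33.0 CPM in the deeper libraries (-0.88 ± 0.409, adjusted p = 0.144). Snora73a had a log2 fold change of -0.63 ± 0.390. Snora74a (U19) was at 2.34, 11.5 and 19.7 CPM in WT and at 12.6, 19.2 and 31.2 CPM in the deeper libraries, all 7 above the WT median (0.88 ± 0.350, adjusted p = 0.0860), beside -0.06 ± 0.568 in the 3 others. Snora23 (-0.42 ± 0.455) and Snora81 (-0.21 ± 0.382) also did not pass. Over the 10 H/ACA snoRNAs tested the median log2 fold change was -0.26, over 7 C/D snoRNAs -0.77 and over 16 hosts -0.06, beside 0.00218 over all genes tested. The C/D median includes Snord15a and Snord96a, which could enter only as lower, and the H/ACA median includes Snora28. These medians therefore depend in part on the count filter and are not read as a difference between the classes.

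**Figure D4:**
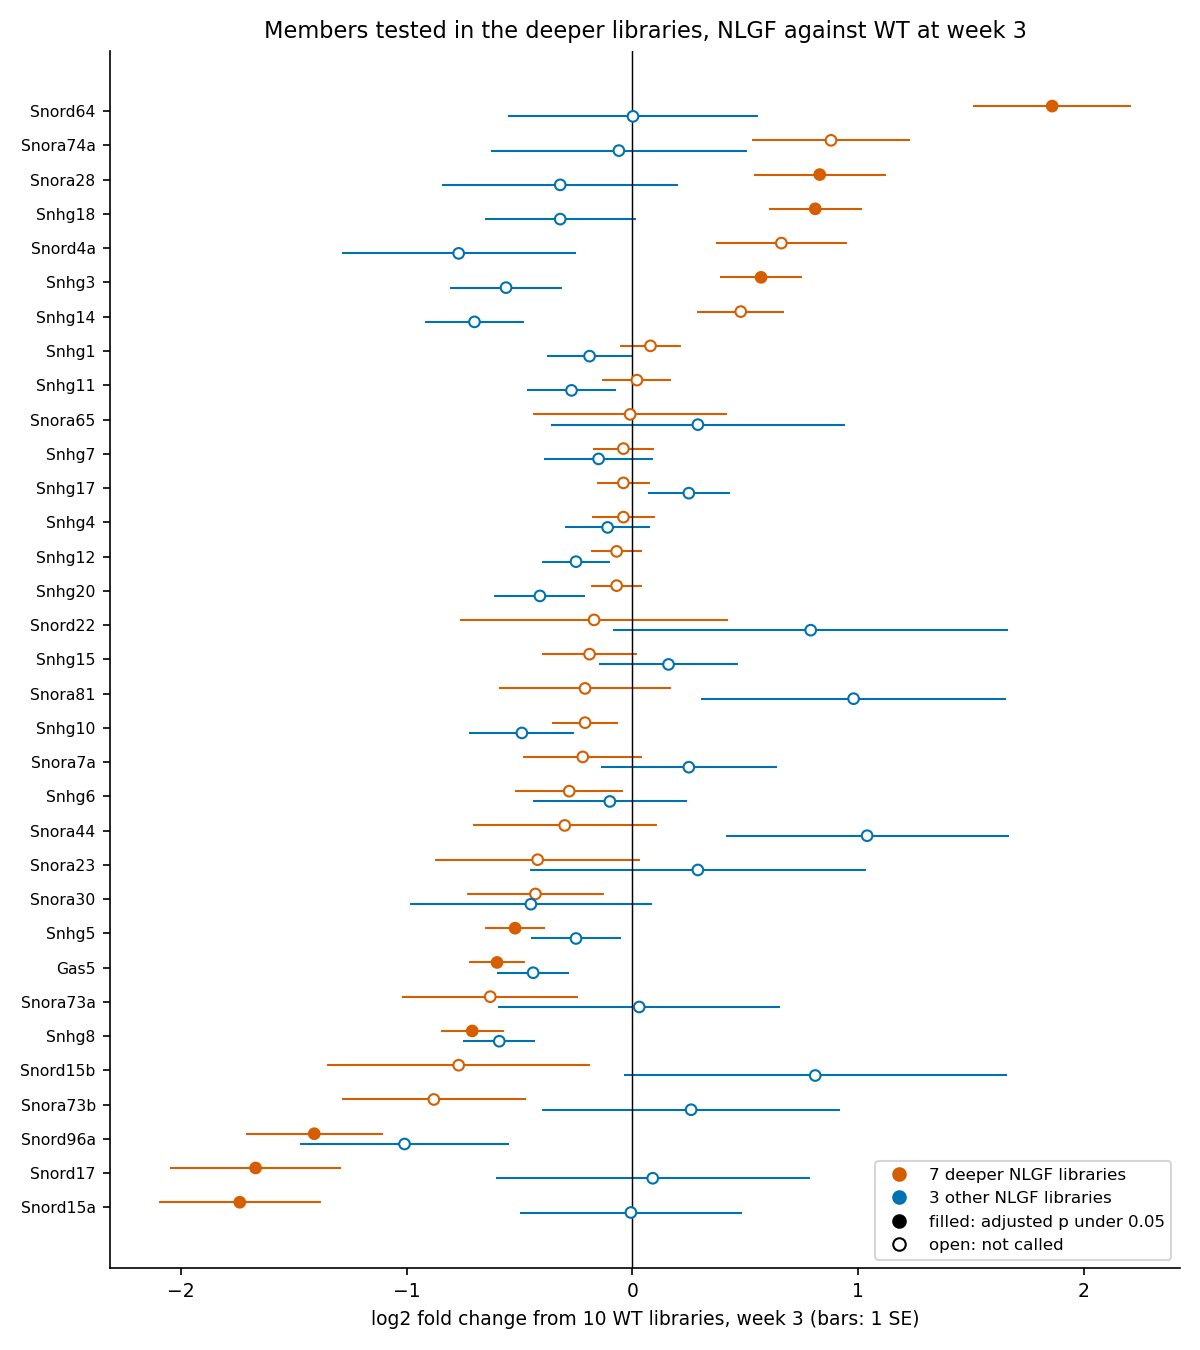
Log2 fold change from the 10 WT libraries of week 3 for the 33 members tested in the deeper libraries, with bars of 1 SE, for the 7 deeper NLGF libraries and the 3 others, which share those WT libraries. Filled points passed an adjusted p of 0.05 and open ones did not. Snord64 (1.86) and Snord15a (-1.74) are at the ends in the deeper libraries and near 0 in the others, whereas Gas5 (-0.60 and -0.44) and Snhg8 (-0.71 and -0.59) are below 0 in both.

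The 7 deeper and the 3 other NLGF libraries of week 3 were also compared with each other, a split by total count and not a group of the study. Of 52 members tested, 4 were higher and 1 lower in the deeper libraries, where 14.3% of all genes were called, 6.51% higher and 7.82% lower. Snord64 (1.65 ± 0.384, adjusted p = 0.0183), Snhg18 (1.3 ± 0.295, adjusted p = 0.0151), Snora28 (1.13 ± 0.329, adjusted p = 0.0400) and Snhg3 (0.95 ± 0.207, adjusted p = 0.0130) were higher, with every deeper library above every other one. Snord15a was lower (-1.77 ± 0.434, adjusted p = 0.0203), with no overlap. Overlap was counted for members only, so the share of all genes so separated is not known. The separation is therefore not read as particular to these members. To be tested, a gene had to reach the filter's limit of 0.177 CPM in 3 libraries. Snord15a reached it in 3 of 3 others and 2 of 7 deeper libraries, and Snora28 in 2 of 3 others and 7 of 7 deeper ones. Both thus passed only with the group where they were high, so their calls and separation depend in part on the filter. Gas5 (-0.24 ± 0.0915, adjusted p = 0.0937), Snhg8 (-0.23 ± 0.156) and Snord96a (-0.28 ± 0.464) did not pass the test. Snhg14 (1.06 ± 0.314, adjusted p = 0.0541) and Snord15b (-2.0 ± 0.591, adjusted p = 0.0536) came close to the limit. Snhg11 and Snhg1 also did not pass. With each library left out in turn, Snora28 was lost in 8 of 10 fits, Snord15a in 3, Snord64 and Snhg18 in 2 each and Snhg3 in 1. Without female replicate 2, the call count was 1, and without female replicate 5 it was 3.

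A host and its own snoRNAs often had values of different sign or size. In the deeper libraries against WT, Snhg3 was at 0.57 while Snora73a and Snora73b inside it were at -0.63 and -0.88 on the log2 scale. Rcc1, which encodes a nuclear exchange factor and overlaps the same snoRNAs, was lower (-0.37 ± 0.0986, adjusted p = 0.0104). Rps3 was lower (-0.58 ± 0.0894, adjusted p = 0.000135), as was Snord15a in it. Snx5 was at -0.03 ± 0.0703 and Rack1 at -0.10 ± 0.0788, with Snord17 at -1.67 and Snord96a at -1.41. Eif5 was at 0.22 ± 0.0925 with Snora28 at 0.83. Snhg14 and Snord64 in its span were at 0.48 and 1.86, and Snhg1 and Snord22 at 0.08 and -0.17. In Snhg12, a host of 3 kept snoRNAs at 6.56 CPM (median, deeper) and 7.19 CPM (median, WT), the host was at -0.07 ± 0.113 and Snora44 at -0.30 ± 0.407, and Snora16a and Snora61 were not tested. Snhg7 was at -0.04 ± 0.136, and Snora17 and Snora43 in its span were not tested. Of 19 host and snoRNA pairs with both tested (17 snoRNAs), 12 had the same sign in the deeper libraries. In the 3 others 8 of 21 did (19 snoRNAs). Snora73a and Snora73b each count with both Rcc1 and Snhg3, and Snora74a counts with Snhg4, whose strand was not used. Most of these snoRNA values were not called.

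Genes of snoRNA biogenesis passed the test in both directions in the deeper libraries, where 21.5% of all genes did. Fbl fell (-0.75 ± 0.0748, adjusted p = 6.76e-07) and was called alone of 3 C/D core protein genes tested. Nop10 rose (0.37 ± 0.0787, adjusted p = 0.00225) among 4 H/ACA core genes. Of 10 assembly factors, the ATPase genes Ruvbl1 (-0.61 ± 0.0676) and Ruvbl2 (-0.25 ± 0.0618) fell and Naf1 (0.56 ± 0.0934), which loads dyskerin, rose. Of 7 genes of snoRNA trimming, the poly(A) polymerase gene Papd5 rose (0.25 ± 0.0656) and the deadenylase gene Parn fell (-0.30 ± 0.0835). Of 10 nonsense-mediated decay factors, Upf3b rose (0.28 ± 0.0931), and Smg5 (-0.21 ± 0.0527) and Upf3a (-0.29 ± 0.0988) fell. Of 15 subunits of RNA polymerases I and III, 6 fell and 0 rose, among them Polr1c at -0.29 and Polr3a at -0.21 on the log2 scale. In the 3 other libraries 0 genes of these lists were called, with Fbl at -0.06 ± 0.110 and Ruvbl1 at -0.05 ± 0.0968. Of 10 other short noncoding RNAs tested in the deeper libraries, 5 rose, among them Bc1 (7.18 ± 0.537), Rny1 (4.08 ± 0.481) and Rny3 (4.85 ± 0.350), and Rn7s1 (-4.50 ± 0.301) and Rn7s2 (-4.32 ± 0.252), RNAs of the signal recognition particle, fell.

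At week 8, 0 of 28 members were called between genotypes, where 0% of all genes were called (edgeR; 0 members with DESeq2). At an unadjusted p under 0.05 there were 4 members, beside 7.83% of all genes. Gas5 was at 17.3, 37.8 and 64.6 CPM in WT and 29.0, 35.0 and 40.7 CPM in NLGF (-0.15 ± 0.140, adjusted p = 0.773), so that the NLGF libraries lay inside a wider WT range. Snord64 was at 0.0434, 0.942 and 2.73 CPM in WT and at 1.62, 2.11 and 3.19 CPM in NLGF, all 10 above the WT median (1.06 ± 0.404, adjusted p = 0.633). Snhg6 (0.58 ± 0.189), Snhg1 (0.33 ± 0.140) and Snord4a (-0.41 ± 0.194) had the other small p-values. Snhg11 was at -0.06 ± 0.104 and Snhg14 at 0.14 ± 0.195.

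At week 24, 0 of 29 members were called, against 0.878% of all genes (edgeR; 0 members with DESeq2). At an unadjusted p under 0.05 there were 3, beside 8.99% of all genes, namely Snhg7 (0.41 ± 0.162), Snhg15 (-0.34 ± 0.151) and Snora74a (0.31 ± 0.139). Gas5 was at 37.3, 40.4 and 53.2 CPM in WT and 30, 39.5 and 47.9 CPM in NLGF (-0.09 ± 0.0859, adjusted p = 0.798). Snord64, high in the deeper libraries of week 3, was at 0.784, 1.82 and 3.55 CPM in WT and 1.32, 2.34 and 2.92 CPM in NLGF (0.18 ± 0.203, adjusted p = 0.824). Snhg11 (0.13 ± 0.0791), Snhg14 (0.15 ± 0.146) and Snhg1 (0.14 ± 0.0895) did not pass the test. In the same libraries 8 of 10 microglial genes rose, whose summed level was 252 to 283 CPM in WT and 310 to 397 CPM in NLGF. The difference of the genotype effect between weeks 24 and 8 called 0 of 32 members (0.352% of all genes; edgeR, and 0 with DESeq2). Snhg6 (-0.64 ± 0.257, adjusted p = 0.869) was the 1 member at an unadjusted p under 0.05, beside 4.66% of all genes, and Gas5 (0.06 ± 0.171), Snhg1 (-0.19 ± 0.163), Snhg11 (0.18 ± 0.134) and Snhg14 (0.00682 ± 0.254) were not called.

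Few members were called between ages. Between weeks 8 and 3 in WT, where 7.14% of all genes were called, 1 of 32 members passed: Snord96a fell from 0.272, 0.431 and 1.04 CPM (lowest, median and highest) to 0, 0.221 and 0.627 CPM, with 7 of 10 libraries of week 8 below every library of week 3 (-1.08 ± 0.342, adjusted p = 0.0494). Leaving out 1 library ended it in 20 of 30 fits. Snhg5 (-0.36 ± 0.147), Snord15a (-0.83 ± 0.354) and Snora30 (-0.70 ± 0.304) had unadjusted p-values under 0.05, while Gas5 (0.14 ± 0.165), Snhg1 (-0.19 ± 0.139), Snhg11 (0.07 ± 0.115) and Snhg14 (0.15 ± 0.204) did not. With Snord96a this made 4 of 32 members under that limit (edgeR), beside 3386 of 16844 genes. In those WT libraries the H/ACA core gene Gar1 (0.46 ± 0.146), the assembly factor genes Znhit6 (0.44 ± 0.0919) and Naf1 (0.32 ± 0.0799), and Papd5 (0.26 ± 0.0724) rose. All 5 blood markers and all 6 oligodendrocyte markers fell (median log2 fold change -1.54 and -1.3). Of 10 markers of hippocampal neurons, 2 rose (Rbfox3 and Snap25).

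Between weeks 24 and 8 in WT, 0 of 32 members were called (0.279% of all genes; edgeR, and 0 with DESeq2). At an unadjusted p under 0.05 there were 4, beside 11.5% of all genes, among them Snora23 (1.07 ± 0.393). Gas5 was at 0.11 ± 0.164, Snhg1 at 0.20 ± 0.139, Snhg11 at 0.05 ± 0.115 and Snhg14 at 0.15 ± 0.203. In NLGF, 1 of 28 was called (2.81% of all genes): Snora74a rose from 7.15, 9.77 and 12.9 CPM to 9.61, 12.2 and 20.1 CPM (0.46 ± 0.125, adjusted p = 0.0490). At week 24, 4 of 10 libraries lay above every library of week 8, and leaving out 1 library ended the call in 15 of 20 fits. Gas5 (0.19 ± 0.0902), Snhg11 (0.22 ± 0.114), Snhg14 (0.16 ± 0.155) and Snhg1 (0.01 ± 0.0871) did not pass the test. Unadjusted p-values under 0.05 (edgeR) were found for 7 of the 28 members in NLGF, beside 2599 of 16848 genes. From week 8 to week 24 the mean H/ACA sum went from 64.7 to 87.0 CPM in WT and from 72.7 to 96.2 CPM in NLGF. The SDs of these sums were 14.4 to 21.6 CPM. The C/D sum went from 18.4 to 22.3 CPM in WT and from 22.0 to 22.4 CPM in NLGF. These changes in sums were not tested.

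The U17 copies shown above kept a steady ratio in most libraries and left it in a few. In 52 of 60 libraries Snora73a was at 0.454 to 0.778 times the level of Snora73b. In 4 it was at 0.155 to 0.239 times (NLGF week 8 female replicate 2 and male replicates 1 and 3, and WT week 24 male replicate 2), and in 4 at 1.02 to 1.68 times (WT week 3 female replicate 4 and male replicate 5, NLGF week 3 male replicate 2 and WT week 24 female replicate 3). The bounds of these bands were set after the values were seen. Both genotypes and several ages occur on either side.

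**Figure D5:**
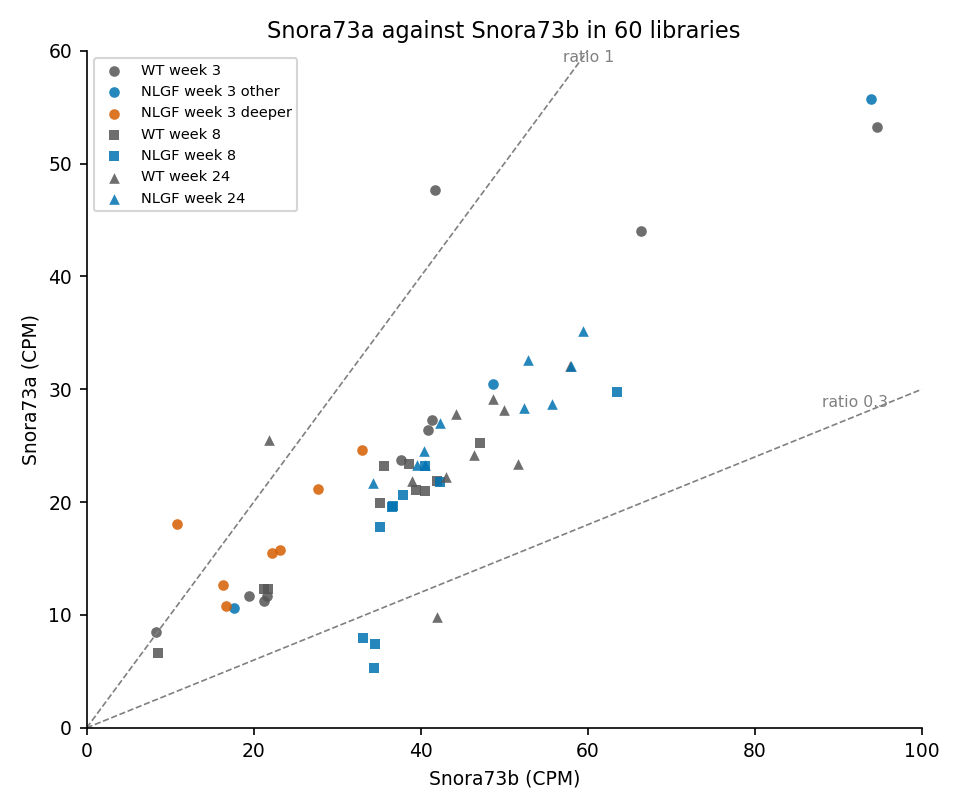
Level (CPM) of Snora73b on the horizontal axis and Snora73a on the vertical axis, with 1 point for each of 60 libraries, coloured by genotype and library kind and shaped by week. Dashed lines mark ratios of 1 and 0.3, and 4 libraries lie above the upper line and 4 below the lower one.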

How the data were processed

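The authors sequenced rRNA-depleted total RNA of 60 hippocampus aliquots and deposited raw read counts per gene symbol. Per the submitters' processing notes, FastQC, STAR, edgeR, DESeq2 and mm10 were used; which program, annotation and strand setting produced the counts is not given in the sources used here. The authors' deposited tables of log2 fold changes and p-values per week were used only where named. Differences were tested with edgeR 4.0.16 in R 4.3.3 (TMM scaling, filterByExpr with a minimum count of 10, robust quasi-likelihood F-test, sex as covariate). The p-values were adjusted by Benjamini-Hochberg across every gene in a fit, and 0.05 was the limit for a call. The SE is the log2 fold change divided by the square root of F. Levels are CPM on TMM-adjusted totals of all 60 libraries, while the limit of 0.1 CPM used plain totals. Libraries above or below another group were counted for members only, and the matching shares over all genes are not known. A member that passed the count filter only through the group where it was high had to differ, as for Snord15a and Snord96a in the deeper libraries. Snora28 in the deeper libraries against WT, and Snora28 and Snord15a between the 2 kinds of library, also needed that group to pass. The same held for Snord64 with all libraries of week 3 and for Snord96a between WT weeks 8 and 3. Of the 131 rows, 128 matched a GENCODE vM21 gene and 2 a RefSeq gene only. The text names Gas5, Snhg1, Snhg11 and Snhg14, the 6 most abundant members of each class, the members called, hosts of several kept snoRNAs and called pathway genes. The members and lists were chosen with earlier results of these data known. Scripts were tested on simulated data. Alternatives were RLE scaling, DESeq2 1.42.0, other count filters, no sex term, a replicate block, a term for the deeper libraries and leaving out each library.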

Additional observations from a re-analysis of the deposited data

Results flagged for a closer look

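The summed levels of the 3 classes and the ratio of Snora73a to Snora73b were examined in the 12 groups of 5 libraries, 48 sets of values in all, for a library whose gap to its nearest neighbour takes most of the group's range. Chance marks about 1 in 20 such sets, and 11 were marked. The host sum was high in WT week 24 female replicate 2 (241 CPM, nearest 211) and low in WT week 8 female replicate 1 (155 CPM, nearest 203). The H/ACA sum was low in WT week 8 female replicate 2 (42.6 CPM, nearest 74.8), and the C/D sum was low in WT week 24 female replicate 5 (21.8 CPM, nearest 23.9), a small step in a narrow group.

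The other 7 marks fell on the ratio of the U17 copies. It was high in NLGF week 3 male replicate 2 (1.68, nearest 0.745), WT week 24 female replicate 3 (1.17, nearest 0.630), WT week 3 female replicate 4 (1.14, nearest 0.663), WT week 3 male replicate 5 (1.02, nearest 0.645) and WT week 8 male replicate 3 (0.778, nearest 0.606). It was low in NLGF week 8 female replicate 2 (0.155, nearest 0.506) and WT week 24 male replicate 2 (0.235, nearest 0.516).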

How the results depend on the processing

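No named call reversed its direction under the alternatives run. At week 3 with all libraries the 4 member calls became 0 with a term for the deeper libraries, and 2 to 7 with a library left out: 2 without WT female replicates 1, 2 or 5, WT male replicates 2 or 5, or any 1 deeper library, and 7 without NLGF female replicate 2. The 10 calls of the deeper libraries became 8 to 10. For deeper against other libraries, the 5 calls became 10 with DESeq2, 11 with no sex term and 1 to 6 with a library left out. For WT weeks 8 and 3, the 1 call (Snord96a) became 0 with RLE scaling, with no filter, with the filter of at least 1 CPM and with no sex term, and 0 to 2 with a library left out: 2 without week 8 female replicate 1, and 0 without any 1 of 19 libraries (week 3 female 1 to 5, male 1 and 5; week 8 female 2 to 5, male 1 and 5; week 24 female 3 and 4, male 1 to 4). For NLGF weeks 24 and 8, the 1 call (Snora74a) became 0 without the filter and 0 to 2 with a library left out: 2 without week 8 male replicate 5, and 0 without any 1 of 15 libraries (week 8 female 1 to 5 and male 2 to 4; week 24 female 2, 4 and 5 and male 2 to 5). A limit of 1 CPM in place of 0.1 CPM kept 22 members. The other comparisons had 0 member calls in every fit, DESeq2 included. The shares of all genes called in these fits, and in the replicate block fits below, are not given. A change in member calls is therefore not read as particular to the members. Causes were not tested. CPM on plain totals, added after the data were seen, moved the class sums by less than 1 SD.

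The labels do not say that a replicate number marks shared animals or batches, and not every pair of same-numbered libraries varied together (correlation of deviations over 0.1 in 21 of 60 pairs), so the numbers were not taken to pair the samples. Between genotypes it was over 0.1 in 4 of 10 pairs at week 3, 3 of 10 at week 8 and 7 of 10 at week 24 (median 0.207). With a replicate block the member calls were 2 at week 3 with all libraries, 6 with the deeper ones, 0 for WT weeks 8 and 3 0 for NLGF weeks 24 and 8 and 0 between genotypes at week 24. For the short snoRNAs, few counts limit what could be detected: 30 of 59 members passed the filter at week 3, 28 at week 8 and 29 at week 24.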
